A study of Rattus norvegicus with 20 samples.

Results

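Sprouting and non-sprouting cortical neurons of the same rat were compared in the later of the study's time points, day 21. The comparison takes in the arrays titled day 21, which are 10 of the 20 arrays and come from 5 of the 10 animals, with 2 dye-swapped arrays for each animal. The rats were 2 months old, which the study calls young, and had had a stroke. The tracer cholera toxin B, which is taken up by axon endings and carried back to the cell body, was injected into cortex beside the infarct, first coupled to Alexa 488 and 21 days later, at the same place, coupled to Alexa 647. Another 7 days later, laser capture took about 300 neurons of each cell type. Total RNA of both cell types was amplified in 2 rounds of T7 transcription, and a 2-colour rat array then received both, the one in Cy5 and the other in Cy3. The cohort called day 7 differs in the interval between the tracers and consists of 5 other animals, and it is used below only to set the day 21 values beside it. The labels name the cells sprouting and non-sprouting neurons but do not state which tracer pattern defines each, and no uninjured or untraced animals were analysed here.

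After a cortical stroke, neurons near the infarct can grow new axon branches, and the pairs of tracers mark neurons whose axons reached the injection site at different times. Regrowth of an axon is known to draw on growth cone proteins such as GAP-43, on transcription factors such as Jun and ATF3, on actin and microtubule regulators that move the growth cone, and on the supply of membrane and mitochondria. It is known to be held back by myelin proteins and by chondroitin sulfate proteoglycans of the extracellular matrix, which act on receptors of the growing axon. The arrays address which of these genes, or others, differed between neurons with the sprouting label and their neighbours in the same animal.

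Every value below is a log2 ratio of sprouting over non-sprouting neurons, so that 0 means equal signal, 1 means a doubling and a negative value means less signal in sprouting neurons. Arrays with sprouting neurons in Cy3 were turned, and the 2 arrays of an animal were averaged. Values of single animals are always given in the order of animals 1 to 5. Of 41012 gene probes, 37346 were bright enough and measured often enough, which gave 33093 genes, 14470 of them with a current gene symbol. The ratios of both cohorts entered a single limma fit with a mean for each day, and unless said otherwise each p is that fit's unadjusted, two-sided p for day 21. With 5 animals an exact sign-flip test cannot give a two-sided p below 0.0625, and the p-values of the fit rest on its model of the spread.

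Before any gene is named, the arrays of animal 4 have to be set apart. The 2 arrays of an animal, once turned, should correlate positively over genes, and in animals 1, 2, 3 and 5 Pearson's r over genes was 0.33, 0.73, 0.68 and 0.56. In animal 4 it was -0.36, and without turning the swapped array it was 0.36. Both arrays of that animal gave the same sign in 37.3% of genes, against 55.6% to 65.4% in the other animals. Its mean ratios lay close to 0, with an SD over genes of 0.065 against 0.155 to 0.239 in the others. For this reason counts of genes, the leading genes and the list counts are given with and without animal 4, and labels for the dyes of its arrays were kept as deposited. In a further respect 1 channel stood apart, the non-sprouting channel of the unswapped array of animal 3. There 40.3% of spots lay well above background, against 66.4% to 88.5% in the other channels of day 21, where the median spot signal of an array ran from 109 to 345 units for Cy5 and from 140 to 281 for Cy3.

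**Figure D1:**
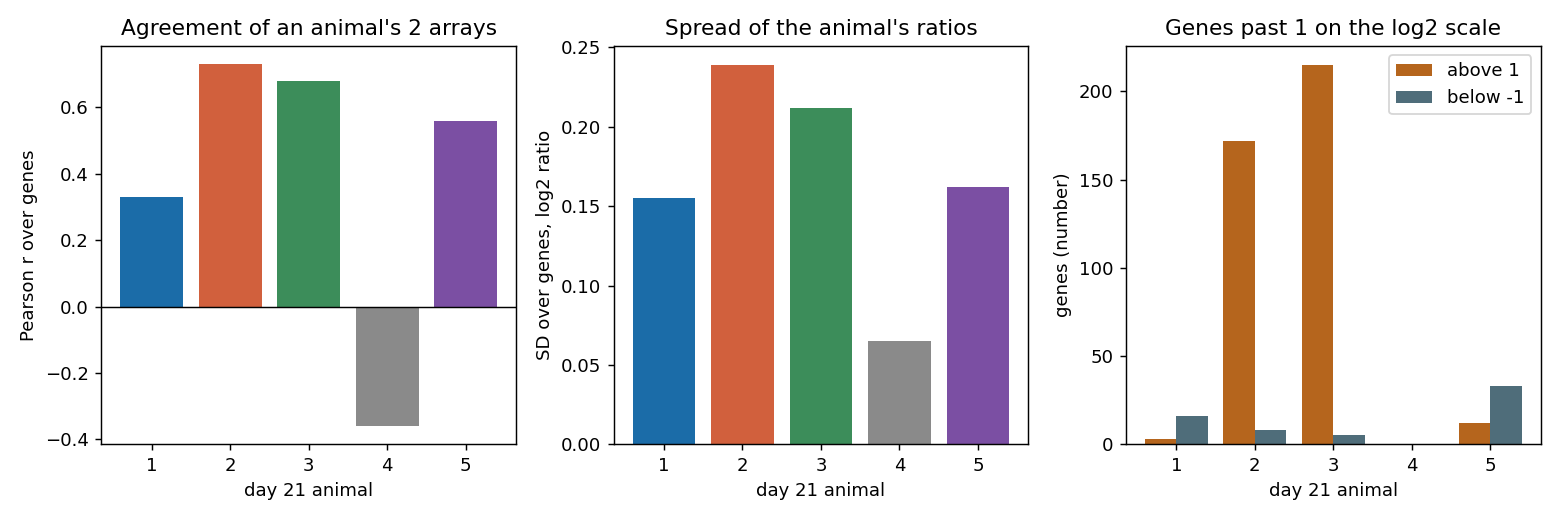
Bars give, for each day 21 animal (x axis), Pearson's r over genes between its 2 turned arrays, the SD over genes of its mean log2 ratio, and the number of genes with a mean ratio above 1 or below -1. Animal 4 has a negative r of -0.36, the smallest SD and no gene past 1 in either direction, while animals 2 and 3 hold 172 and 215 genes above 1.

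Neuronal RNA was present in every sample. All 14 measured general neuron markers, among them Snap25 and Map2, lay well above background in the sprouting channel of all 10 arrays. In the non-sprouting channel of all 10 arrays 12 of the 14 did so. The probes of Slc17a7, the vesicular glutamate transporter of cortical projection neurons, and of Camk2a, a kinase of the same cells, were weaker. Each lay well above background in the sprouting channel of 8 arrays and the non-sprouting channel of 7. Markers of other cells were present as well. In both cell types 19 of 22 astrocyte markers lay above background on all arrays. The count was 20 of 21 oligodendrocyte markers in sprouting and 15 in non-sprouting samples, 16 and 14 of 21 microglial markers, and 17 and 12 of 24 markers of vessel cells. Of 11 blood cell markers 1 did so. In such pooled captures fewer cells of a type and less RNA per cell cannot be told apart.

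No gene differed between sprouting and non-sprouting neurons at a Benjamini-Hochberg adjusted p under 0.05 in the limma fit, 0% of the genes tested. At an unadjusted p under 0.05 there were 1936 genes, where 1655 would pass by chance alone if no gene differed. Of these, 1147 were higher in sprouting neurons, 3.47% of all genes tested, and 789 were lower, 2.38%. Without animal 4 the count at an adjusted p under 0.05 was again 0, and 1338 genes (4.04%) were higher and 834 (2.52%) lower at an unadjusted p under 0.05. With the scanner's processed signals in place of the background-corrected ones the split turned, with 891 higher and 1553 lower at the same threshold. It turned as well without animal 3, at 556 higher and 831 lower, and with estimated weights for the animals, at 998 and 1041. Those weights did not play down animal 4, whose weight of 2.4 was the largest, against 0.65 to 1.28 for the other day 21 animals. Leaving out animal 2 gave 587 higher and 524 lower, and leaving out animal 1 gave 1009 and 504. Ratios were above 0 in 5 of 5 animals for 1415 genes, 4.28% of those measured in all of them, and below 0 in 5 of 5 for 1349 genes, 4.08%. The animals shared little: Pearson's r over genes between the ratios of any 2 of the 5 animals ran from -0.01 to 0.22, with a median of 0.06 over the 10 pairs. The genes below are therefore the leading candidates of a comparison in which nothing passed the correction, and their p-values describe how they were chosen. Over the alternatives run, the adjusted p of the named genes lay between 0.17 and 1.

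Among the 12 genes of smallest p that were higher in all 5 animals, mean ratios lay between 0.11 and 0.25, which is 1.08-fold to 1.19-fold. Without animal 4 they lay between 0.12 and 0.31. Rsph3, which encodes a radial spoke protein of cilia, had ratios of 0.25, 0.22, 0.21, 0.06 and 0.53. Its mean was 0.25 ± 0.17 (SD, n = 5), and limma gave an unadjusted p of 0.00171 and an adjusted p of 0.837. All 10 arrays lay above 0, with animal 5 highest and animal 4 lowest, and without animal 4 the mean was 0.30. Plekhh2, a protein with pleckstrin homology and FERM domains, read 0.23, 0.34, 0.31, 0.02 and 0.35, with a mean of 0.25 ± 0.14. Animals other than animal 4 lay close together for this gene, but another probe for it had a mean of 0.02.

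The RNA-binding protein Syncrip, an hnRNP found in the RNA granules of dendrites, gave ratios of 0.14, 0.35, 0.18, 0.08 and 0.25, on 10 of 10 arrays above 0. Its mean was 0.20 ± 0.10, with an unadjusted p of 0.0024 in limma, and without animal 4 it was 0.23. Mtpn, or myotrophin, a small protein that binds the capping protein of actin filaments, likewise lay above 0 on 10 of 10 arrays, at 0.09, 0.25, 0.19, 0.06 and 0.29 with a mean of 0.18 ± 0.10. Spire1, which starts new actin filaments, read 0.17, 0.09, 0.33, 0.15 and 0.16. For this gene animal 2, not animal 4, was the lowest, but the 2 arrays of animal 4 disagreed, at -0.026 and 0.335. Sbno1, a homologue of the fly gene strawberry notch, had ratios of 0.04, 0.37, 0.26, 0.07 and 0.26. Chchd3, a subunit of the complex that shapes the folds of the inner mitochondrial membrane, read 0.09, 0.21, 0.30, 0.10 and 0.05. Here too the arrays of animal 4 disagreed, at -0.143 and 0.347. The remaining members were Kiss1, the precursor of the peptide kisspeptin, Amz2, a metallopeptidase, Ofd1, a protein of the centriole and cilium base, Tyk2, a Janus kinase of cytokine receptors, and Tsx, and their means lay between 0.11 and 0.16, though another probe for Amz2 averaged 0.02. Tyk2 rests on few arrays. It lay above background in the sprouting channel of 5 and the non-sprouting channel of 7. Of the 9 arrays that measured it, 6 lay above 0. The arrays of Tyk2 split by dye, with swapped ones at 0.185 to 0.343 and unswapped ones at -0.149 to 0.049. In animal 3 only the swapped array measured it. For Kiss1 the value of animal 1, 0.294, likewise came from the swapped array alone. Swapped arrays of Kiss1 read 0.011 to 0.339 and unswapped ones -0.015 to 0.080. Tsx lay above background in the sprouting channel of 8 arrays and the non-sprouting channel of 6.

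The 12 genes of smallest p that were lower in all 5 animals had means between -0.31 and -0.12, or 1.08-fold to 1.24-fold less in sprouting neurons, and between -0.36 and -0.11 without animal 4. The smallest unadjusted p among them, 0.000219 in limma with an adjusted p of 0.837, belonged to Smr3a, a gene known from salivary gland, at -0.18, -0.13, -0.10, -0.14 and -0.17. The averages of its animals lay within a narrow band, but its single arrays ran from -0.44 to 0.09, both of them in animal 1. Its mean was -0.07 with median centring and -0.47 with the scanner's processed signals. Its probe was above background in the sprouting channel of 5 arrays and the non-sprouting channel of 9. Fmnl1, a formin that lengthens actin filaments and is best known from blood cells, was lower by more, with ratios of -0.37, -0.30, -0.44, -0.19 and -0.23. It lay below 0 on all 10 arrays and had a mean of -0.31 ± 0.10, with an unadjusted p of 0.000734 in limma. Without animal 4 its mean was -0.34.

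Kdelr1, a receptor that returns escaped proteins from the Golgi to the endoplasmic reticulum, read -0.27, -0.22, -0.12, -0.07 and -0.15. Itgb6, the beta 6 integrin subunit, had ratios of -0.36, -0.23, -0.11, -0.21 and -0.22. For both genes 1 of the 10 arrays lay above 0. Marf1, which is known to destabilise RNAs in oocytes, was below 0 on all 10 arrays at -0.28, -0.29, -0.61, -0.08 and -0.25, yet 2 other probes for it averaged -0.01 each. Eno3, the enolase of muscle, was also below 0 on all 10 arrays, at -0.28, -0.54, -0.12, -0.14 and -0.31. Aldh2, the mitochondrial dehydrogenase that clears aldehydes, lay at -0.23, -0.31, -0.17, -0.06 and -0.18 with a mean of -0.19 ± 0.09. Every animal lay below 0 for this enzyme, animal 4 by the least. Retsat, which saturates retinol, had a mean of -0.24 ± 0.12, and Tet2, which oxidises methylated cytosine in DNA, had a mean of -0.12 ± 0.05. The hydrolase family members Abhd3 and Abhd1 had means of -0.29 ± 0.18 and -0.13 ± 0.07. Cfap20dc closed the set at -0.16 ± 0.10, where another probe averaged -0.03. Some of these probes were weak. Abhd1 lay above background in the sprouting channel of 5 arrays and the non-sprouting channel of 6, and 3 of its 10 arrays lay above 0. The counts above background were 6 and 7 for Cfap20dc and 6 and 9 for Tet2.

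**Figure D2:**
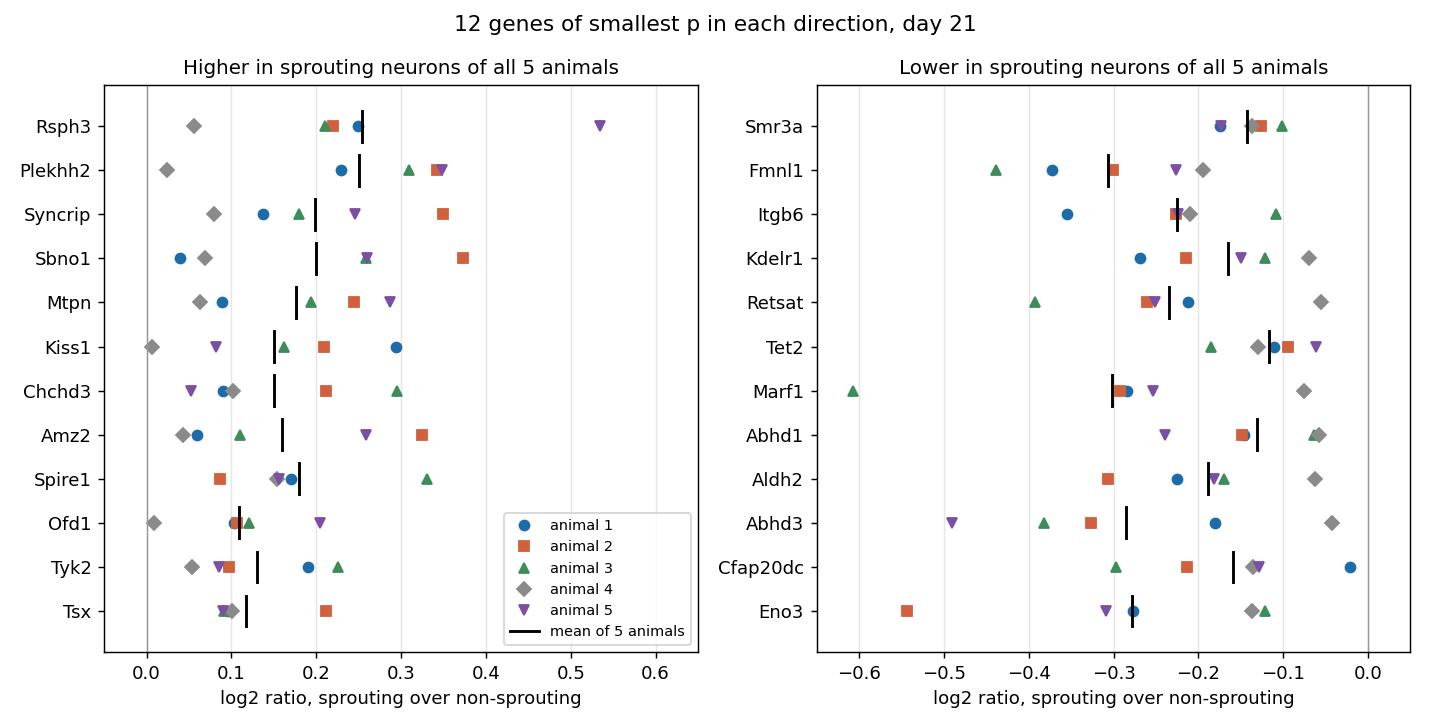
Points are log2 ratios of sprouting over non-sprouting neurons (x axis) in the 5 day 21 animals for the 12 genes of smallest unadjusted p higher (left) and the 12 lower (right) in all animals, with a bar at the mean. Animal 4 lies nearest to 0 for 8 of the 12 higher and 7 of the 12 lower genes.

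Larger mean ratios went with a wider spread. Without animal 4 the means of the 6 higher genes of this kind lay between 0.46 and 0.68 and those of the 6 lower between -0.53 and -0.40. Lgals3, or galectin-3, a lectin made by activated microglia and macrophages, read 0.38, 0.42, 0.34, 0.05 and 1.56. Its mean of 0.55 ± 0.59 had an unadjusted p of 0.0392 in limma, and animal 5 stood far above the other animals. Mybpc1, a myosin-binding protein of slow muscle, had ratios of 0.35, 0.67, 0.25, 0.07 and 1.11, and its other probe averaged 0.23. Kcna3, a voltage-gated potassium channel known from lymphocytes and microglia as well as neurons, read 0.02, 0.69, 0.99, 0.02 and 0.41. Animals 1 and 4 were at about 0 for this channel, and its other probe averaged 0.02. Zfyve9, which anchors Smad proteins at the TGF-beta receptor, lay at 0.42, 0.01, 0.88, 0.06 and 0.68, and its other probe averaged 0.07. Pa2g4, a regulator of growth and ribosome assembly, lay at 0.14, 0.66, 0.97, 0.00 and 0.08, so that animals 2 and 3 carry its mean of 0.37. C12h12orf43 had a mean of 0.42, of which animal 3, at 1.28, gave the largest part.

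In the other direction Cyyr1 had ratios of -0.38, -0.45, -0.83, -0.08 and -0.47, with a mean of -0.44 ± 0.27, although 2 other probes averaged -0.06 and -0.04. Taf5, a subunit of the general transcription factor TFIID, read -0.38, -0.52, -0.60, -0.12 and -0.33. Ptk2b, a calcium-responsive tyrosine kinase abundant in forebrain neurons, read -0.45, -0.76, -0.23, -0.08 and -0.15 and was below 0 on all 10 arrays. Plscr4, a phospholipid scramblase, was likewise below 0 on all 10, at -0.35, -0.72, -0.14, -0.01 and -0.69, while its other probe averaged 0.04. Ptpro, a receptor tyrosine phosphatase, split into animals 1, 3 and 5 at -0.64 to -0.78 and animals 2 and 4 at 0.00. Atp1b2, the sodium pump's beta 2 subunit that is known from astrocytes, lay at -0.19, -0.49, -0.35, -0.01 and -0.60, and its 2 other probes averaged -0.04 and -0.03.

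Leaving animal 4 out brought other genes to the front, those at which that animal lay on the other side of 0. Kcnma1, the large-conductance calcium-activated potassium channel, read 0.24, 0.20, 0.42, -0.01 and 0.29. Its mean without animal 4 was 0.29, with an unadjusted p of 0.000198 in limma, and its other probe averaged 0.02. Rfesd, a Rieske-domain protein, read 0.19, 0.53, 0.53, -0.03 and 0.34, Pgrmc2, a membrane haem-binding protein, had a mean without animal 4 of 0.26, and Dgkd, a diacylglycerol kinase, had 0.29. The other probe of Pgrmc2 averaged 0.18 and that of Dgkd 0.00 over 5 animals. Slc27a1, a fatty acid transporter, read -0.27, -0.53, -0.31, 0.07 and -0.35, with the smallest unadjusted p of these without animal 4, 0.000171 in limma, and another probe for it averaged -0.03. Fcgrt, the receptor that recycles antibodies and albumin, read -0.51, -0.37, -0.15, 0.01 and -0.33. Or8b1, an olfactory receptor gene, was above background in the sprouting channel of 2 arrays and the non-sprouting channel of 3. Its values are close to the limit of detection. None of these passed the correction without animal 4 either.

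The growth cone list held 28 measured genes, of which 17 had a mean above 0 and 11 below, with a list median of 0.007 against -0.001 for all genes tested. At an unadjusted p under 0.05, 1 member was higher and 0 lower, with and without animal 4. Over all genes tested the shares at that threshold were 3.47% higher and 2.38% lower, or 4.04% and 2.52% without animal 4, and list counts near those shares, here and below, are no more than the background. The higher member was Basp1, a growth cone membrane protein that binds calmodulin, with ratios of 0.21, 0.35, 0.51, -0.03 and 0.17. Its mean was 0.24 ± 0.20, higher on 8 of 10 arrays, with an unadjusted p of 0.0162 in limma. Without animal 4 the mean was 0.31, while its other probe averaged -0.03 over 5 animals. Stmn4, a microtubule-destabilising stathmin, read 0.21, 0.57, 0.42, -0.01 and 0.25 and was above 0 on 9 of 10 arrays. Gap43 itself, the classic marker of the growing axon, read -0.32, 0.38, -0.37, 0.10 and 0.20 and averaged 0.00 ± 0.33 (unadjusted p of 1 in limma). It was higher in 3 animals and lower in 2, and the SE of its mean was 0.106. The Gap43 probe was very bright and saturated in the sprouting channel of 1 array and the non-sprouting channel of 1, which limits how far its ratios can be read. Stmn2 averaged -0.04 ± 0.14.

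Transcription factors of regeneration showed 15 means above and 14 below 0 over 29 genes, with 2 higher (3 without animal 4) and 0 lower at an unadjusted p under 0.05. Jun, the factor of the axotomy response, was higher in 5 of 5 animals and on 10 of 10 arrays, at 0.25, 0.26, 0.19, 0.04 and 0.13. Its mean of 0.17 ± 0.10 had an unadjusted p of 0.0559 in limma, and 0.0488 without animal 4. Klf6, which is known to promote axon growth, read 0.00, 0.58, 0.78, 0.00 and 0.10, so that animals 2 and 3 gave most of its mean of 0.29 (unadjusted p of 0.0196 in limma). Without animal 4 the mean of Klf6 was 0.36, and its other probe averaged 0.16. Atf2 read 0.38, 0.17, 0.30, -0.07 and 0.16. Atf3, which partners Jun after injury, did not follow it and lay at 0.22, -0.38, -0.10, 0.05 and -1.09. Sox11 averaged 0.04 ± 0.05.

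In the axon guidance list 27 of 44 genes had a mean above 0 and 0 passed an unadjusted p of 0.05 in either direction in limma. Without animal 4, 2 were higher, Slit2 and Robo2. The secreted repellent Slit2 and its receptor Robo2 had similar profiles over animals, a profile also seen in Klf6 and Pa2g4. Animals 2 and 3, where these genes were highest, also had the highest r of any pair over all genes, 0.22. Slit2 read 0.03, 0.58, 1.03, -0.01 and -0.05, and Robo2 read 0.06, 0.54, 0.81, -0.03 and 0.11. Both were high in animals 2 and 3 and near 0 in the others, with unadjusted p-values of 0.0596 and 0.0621 in limma, or 0.0395 and 0.0391 without animal 4. Another probe for Robo2 averaged 0.06. Epha4, an ephrin receptor, averaged 0.08 ± 0.12, and its ligand gene Efna5 averaged 0.01 ± 0.07. Among 28 genes of growth-inhibitor receptors and their signalling, 15 means lay above 0, with 0 higher and 2 lower at an unadjusted p under 0.05, Rhob and Tsc2, and the same counts without animal 4. Rhob, a small GTPase, read 0.06, -0.37, -0.52, -0.02 and -0.31, and Tsc2, a brake on the growth kinase mTOR, read -0.02, -0.29, -0.24, -0.04 and -0.05. The Nogo receptor Rtn4r averaged -0.05 ± 0.22 and its co-receptor Lingo1 averaged -0.05 ± 0.08. The gene for the ligand, Rtn4, reached 1.04 in animal 2 and lay between -0.37 and 0.02 in the other animals.

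Proteoglycans and other matrix genes leaned towards lower values. Of 41 measured genes, 28 had a mean below 0, and the list median was -0.039, with each animal's own median below 0 as well, from -0.056 in animal 1 to -0.004 in animal 5. At an unadjusted p under 0.05 there were 0 higher and 1 lower, with and without animal 4. In both cases it was Sparcl1, an astrocyte-secreted protein that promotes synapse formation. Sparcl1 read -0.22, -0.30, -0.12, -0.01 and -0.18, with a mean of -0.17 ± 0.11 and an unadjusted p of 0.00428 in limma. Bcan, or brevican, a proteoglycan of perineuronal nets, was below 0 in 5 of 5 animals but by little, with a mean of -0.04. Vcan, or versican, lay at 1.24 in animal 5 and between -0.15 and 0.09 in the others, and its spots in animal 5 are taken up again below. The share of means below 0 in this list can be set beside the 16890 below 0 among the 33093 genes tested, and markers of astrocytes, which make several of these proteins, lay lower in the same animals, as described further on. Their part in the matrix values was not tested.

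Growth factors and their receptors had 28 means above and 33 below 0 over 61 genes, with 2 higher and 0 lower at an unadjusted p under 0.05, with and without animal 4. Both times these were Inhba, a subunit of activin, at -0.01, 0.31, 0.20, 0.03 and 0.34, and Ntrk2, the BDNF receptor, at 0.09, 0.53, 0.99, -0.02 and -0.02. The other probe of Ntrk2 averaged -0.08, of the opposite sign. Bdnf averaged 0.04 ± 0.21 and Igf1 averaged -0.02 ± 0.29, and each was above 0 in 3 animals and below in 2. Igf1r averaged -0.04 ± 0.04 and Gdf10, a secreted factor of the TGF-beta family, averaged -0.14 ± 0.14. Igf2, an insulin-like growth factor made in brain mainly by the meninges and choroid plexus, had the widest spread of all named genes, at -0.07, 2.35, -0.68, 0.01 and -0.14. Tgfb1 read 0.09, 0.04, 1.28, 0.10 and 0.14 and is taken up again below.

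Among 47 chromatin regulators, 23 means were above 0 and 1 gene was higher and 1 lower at an unadjusted p under 0.05, with and without animal 4. The lower gene was Tet2, and the higher was Ring1, a Polycomb subunit, with a mean of 0.08 ± 0.06. Ring1 lay above 0 on 5 of 10 arrays, and its arrays split by dye. The swapped arrays read 0.11 to 0.44 and the unswapped ones -0.13 to -0.03. Atrx, a chromatin remodeller, read 0.32, 0.60, 1.19, -0.03 and -0.45. It was high in animals 1 to 3 and low in animal 5, so its mean of 0.33 ± 0.63 had an unadjusted p of 0.188 in limma. Its 2 other probes averaged 0.22 and 0.44, and its day 7 mean was 0.45. Of 37 immediate early genes 21 had a mean above 0 and 0 passed an unadjusted p of 0.05 in limma. Without animal 4, 1 was higher, Klf10, with an unadjusted p of 0.0456 in limma. Fos read 0.49, 0.30, 0.27, 0.00 and -0.07, and Klf10 averaged 0.20 ± 0.21 over 5 animals, where its other probe averaged 0.11.

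Cytoskeletal genes were spread on both sides of 0. Of 56 actin regulators 2 were higher and 2 lower at an unadjusted p under 0.05, and 3 and 3 without animal 4. The list does not hold Spire1, and within it Mtpn, Fmnl1 and Tmod2, a tropomodulin of neurons, had the smallest p. Tmod2 read 0.28, 0.27, 0.38, 0.04 and -0.02. Of 47 genes of microtubules and transport motors 31 had a mean below 0, with a median of -0.025, yet 1 was higher and 0 lower at an unadjusted p under 0.05, with and without animal 4. Either way that was Dync1li1, a light intermediate chain of the dynein motor that carries cargo back along the axon, at 0.19, 0.21, 0.54, -0.05 and 0.13. The secretory pathway had 37 of 57 means below 0 with 2 higher and 1 lower, also without animal 4, and the leading higher gene was Srp72, part of the particle that brings ribosomes to the endoplasmic reticulum, at a mean of 0.20 ± 0.16. Of 50 integrins and adhesion genes 1 was lower, Itgb6, and 0 were higher, the same counts as without animal 4.

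Synaptic and excitability genes gave the following counts at an unadjusted p under 0.05. In the presynaptic list 0 of 59 passed in either direction in limma, with and without animal 4, although Syt1, the calcium sensor of vesicle release, had a mean of 0.46 with values of 0.13, 0.94, 1.43, 0.00 and -0.21. Its 2 other probes averaged 0.39 and 0.09. Of 58 glutamate and GABA receptor genes 1 was higher and 2 lower, and 2 and 3 without animal 4. Gria1, an AMPA receptor subunit, read 0.16, 0.38, 0.41, 0.01 and 0.09, and Homer2, a scaffold of metabotropic receptors, read -0.18, -0.08, -0.05, -0.11 and -0.22. Both were of the same sign in 5 of 5 animals. Of 60 ion channel genes, a list that does not hold Kcna3, 2 were higher and 0 lower, and 3 and 1 without animal 4. With all 5 animals these were Kcnma1 and Kcnj3, a G-protein-gated potassium channel, at 0.34, 0.57, 0.78, -0.02 and 0.46. The mean of Kcnj3 without animal 4 was 0.54, while its 3 other probes averaged -0.03, 0.20 and 0.06. Of 51 neuropeptides and receptors 2 were higher and 0 lower, and 2 and 2 without animal 4. The higher genes with all 5 animals were Tacr3, the receptor of neurokinin B, with a mean of 0.37, and Sstr1, a somatostatin receptor, with a mean of 0.23.

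Metabolic and housekeeping lists stayed near the background in their medians over animals, though not in each animal. In animals 2 and 3 the median was 0.14 and -0.11 for heat shock and chaperone genes and -0.10 and 0.09 for ribosomal proteins. For RNA-binding and splicing factors it was 0.12 in animal 2. Medians over animals were 0.028 for 56 genes of oxidative phosphorylation, 0.010 for 73 ribosomal proteins, 0.004 for 57 RNA-binding and splicing factors, 0.007 for 49 heat shock and chaperone genes and -0.002 for 51 proteasome and ubiquitin genes. With all 5 animals, 0 to 2 members of each passed an unadjusted p of 0.05 in limma, each of them higher. Without animal 4 the counts were 1 higher and 1 lower for oxidative phosphorylation, 0 for ribosomal proteins, 4 higher for RNA-binding factors, 1 and 1 for chaperones and 1 higher for the proteasome. The genes that passed with all 5 animals were Syncrip, Tardbp, an RNA-binding protein that binds long introns, at a mean of 0.16, and the chaperone Calr at a mean of 0.30. Inflammation and interferon genes (0 of 62), cell death genes (1 higher and 1 lower of 38) and sterol genes (0 higher and 3 lower of 35, beside 2.38% lower over all genes) had medians of -0.004, -0.005 and -0.022. Without animal 4 the counts of the last 2 lists were the same, and 1 of the inflammation genes was lower. Genes of oxidative stress and aldehyde metabolism had 28 of 43 means below 0 and a median of -0.036, with 0 higher and 2 lower, or 1 and 2 without animal 4. With all 5 animals these were Aldh2, described above, and Sod3, the extracellular superoxide dismutase, which read -0.39, -0.45, -0.22, -0.06 and -0.46, below 0 on all 10 arrays. Over all 36 lists, 28 medians lay within 0.03 of 0 and 4 lay beyond 0.05, and those 4 were lists of glial or vessel markers. Without animal 4, 24 lay within 0.03 and 6 beyond 0.05, with oligodendrocyte precursors and general neuron markers added.

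Markers of astrocytes had the lowest list median, -0.105 over 22 genes, of which 15 had a mean below 0. The animals' own medians were -0.05, -0.08, -0.11, 0.00 and -0.24, and without animal 4 the list median was -0.14. At an unadjusted p under 0.05 there were 0 higher and 4 lower, against 2.38% lower over all genes, and 0 and 5 without animal 4. Among the 4, Aldoc, the aldolase of astrocytes, read 0.01, -0.38, -0.22, -0.05 and -0.36. Slc1a3, a glutamate transporter, read -0.23, -0.18, -0.33, 0.04 and -0.37, and Gjb6, a gap junction protein, read 0.01, -0.46, -0.19, 0.05 and -0.67. Of the 7 markers with a mean above 0, examples are Gfap, the intermediate filament of reactive astrocytes, at a mean of 0.13 ± 0.17, and Fabp7, a fatty acid binding protein, which was above 0 in 5 of 5 animals with a mean of 0.25 ± 0.16. At day 7 the astrocyte list's median was 0.009.

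Endothelial and mural markers were lower for 20 of 24 genes, with a list median of -0.082 and 2 genes lower at an unadjusted p under 0.05, or 3 without animal 4. Animal medians were -0.01, -0.09, -0.08, -0.01 and -0.18. Esam, an endothelial adhesion molecule, read -0.15, -0.37, -0.29, -0.07 and -0.50, and Slc2a1, the glucose transporter of the blood-brain barrier, read -0.02, -0.70, -0.17, -0.04 and -0.50. Cdh5, the cadherin of vessel walls, was below 0 in 5 of 5 animals by little, with a mean of -0.07. Microglial markers had a median of -0.059 with 14 of 21 means below 0 and none at an unadjusted p under 0.05 in limma, and C1qb, a complement subunit, read -0.11, -0.88, -0.31, 0.01 and -0.14. Oligodendrocyte precursors had 7 of 9 means below 0 and a median of -0.039.

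Oligodendrocyte markers varied widely but in different directions in different animals. Their medians over 21 genes were 0.49, -0.31, -0.37, 0.01 and -0.15. Opalin, a myelin membrane protein, read 0.99, -0.57, -0.57, -0.01 and -0.12, and Mog, on the outer face of myelin, read 0.82, -0.30, -0.23, 0.07 and -0.40. Animal 1 thus had more signal of myelin genes in its sprouting neurons and animals 2, 3 and 5 less. Of the 21 means 18 lay below 0, with a list median of -0.052, and none passed an unadjusted p of 0.05 in limma, with or without animal 4. The ratio of oligodendrocyte marker signal between the 2 captures of an animal therefore differed in direction between animals. The amount of such RNA in each capture was not measured, and its part in the ratios of other genes was not tested.

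Markers of neuron classes were split. General neuron markers had 10 of 14 means below 0 and a median of -0.050. Glutamatergic markers had 10 of 15 below 0 with a median of -0.030, for which animal 2, at -0.31, stood apart from the other animals (-0.05 to 0.05). Slc17a7 was level at 0.08, 0.02, -0.01, 0.01 and -0.02, and Nrgn, a calmodulin-binding protein of projection neurons, read -0.68, -0.40, -0.14, -0.02 and 0.03. Upper-layer markers had a median of -0.010 over 16 genes and deep-layer markers 0.016 over 17. In each, 1 gene was higher at an unadjusted p under 0.05, and without animal 4 also 1 lower. Of the glutamatergic markers 1 was lower, Ptk2b, and 2 without animal 4, while none of the general neuron markers passed in limma either way. Pde1a, a phosphodiesterase of deep layers, was the leading layer gene at 0.65, 0.26, 0.96, -0.02 and 0.51, with a mean of 0.47 ± 0.37 and an unadjusted p of 0.0081 in limma. Blood markers had a median of -0.018.

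Interneuron markers included genes on both sides. Over 21 genes the median was 0.005, with 1 higher and 1 lower at an unadjusted p under 0.05, with and without animal 4. Pvalb, the calcium buffer of fast-spiking basket cells, read 0.45, 0.53, 0.38, -0.01 and 0.35. Its mean was 0.34 ± 0.20, or 0.43 without animal 4, with unadjusted p-values of 0.0134 and 0.00569 in limma. Sst, the peptide of another interneuron class, was below 0 in 5 of 5 animals, at -0.51, -1.33, -0.29, -0.09 and -0.21, and animal 2 widened its spread (mean -0.49 ± 0.50, unadjusted p of 0.091 in limma). Gad1, the general GABA-synthesising enzyme, averaged 0.07 ± 0.29 and Gad2 averaged 0.36 ± 0.55, with animals 2 and 3 high at 1.03 and 0.88.

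**Figure D3:**
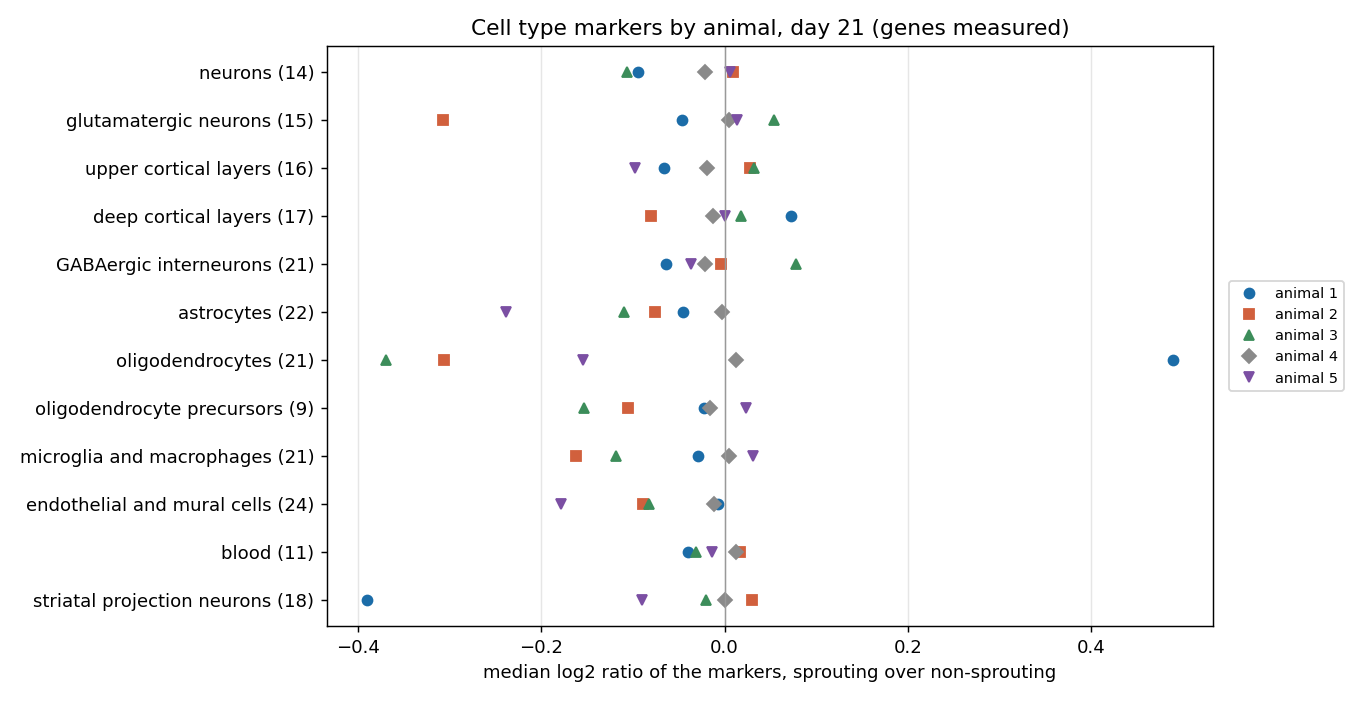
Points are each day 21 animal's median log2 ratio (x axis) over the measured markers of a cell type (y axis, number of markers in brackets). Astrocyte and vessel medians lie at or below 0 in every animal, while oligodendrocyte medians run from -0.37 in animal 3 to 0.49 in animal 1, and the striatal list, written after its genes were seen in animal 1, is at -0.39 there.

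Beyond the means, each animal had its own set of strongly unequal genes. A ratio above 1 was found for 3, 172, 215, 0 and 12 genes in animals 1 to 5, and a ratio below -1 for 16, 8, 5, 0 and 33 genes. In animal 2, 143 of its 172 genes were above 1 on both arrays, and in animal 3, 153 of 215. Most of these high genes are transcripts that the array names by clone or accession only. A current symbol was found for 8.14% of those in animal 2 and 29.8% of those in animal 3, against 43.7% of all genes tested. Animals 2 and 3 shared 64 of them, 37.2% of animal 2's and 29.8% of animal 3's, and 0 of the 64 had a symbol. The median of the 64 was 1.28 and 1.25 in these 2 animals, 0.09 in animal 1 and 0.00 in animals 4 and 5, and 0.16 at day 7. Arrays of animals 2 and 3 were scanned on the same day, those of animals 1 and 4 on another and those of animal 5 on a different one again, and the part of the scan day in the shared genes was not tested.

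In animal 1 the strongly low genes with a symbol included Cartpt at -2.10, Penk at -1.76, Tac1 at -1.37, Rgs9 at -1.22, Npy at -1.20 and Adora2a at -1.06. Cartpt, Penk, Tac1 and Npy encode neuropeptides, and Penk, Rgs9 and Adora2a are known for high levels in projection neurons of the striatum, which lies beneath the cortex. A list of 19 striatal projection neuron genes was written after these values had been seen and is given only as a description. Of its 18 measured genes 17 were below 0 in animal 1, 5 of them below -1, from -1.76 to 0.02 with a median of -0.39. The medians in animals 2 to 5 were 0.03, -0.02, 0.00 and -0.09, and -0.03 at day 7. Of these peptides, Cartpt was also low in animal 5, at -1.91, and read -0.47, -0.35 and 0.08 in animals 2, 3 and 4. Tac1, by contrast, was at -1.37 in animal 1 and at 1.05, 0.47, 0.02 and 1.62 in the others.

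The genes past 1 in animal 5 are named here for their size in that animal alone. Apold1, an endothelial gene, stood at -1.76, Tm4sf1 at -1.37, Podxl, an anti-adhesive protein of vessel lumens, at -1.28 and Ptprb, a phosphatase of endothelium, at -1.01. The spots of Tm4sf1 are taken up again below. Lgals3 stood at 1.56 and Gpnmb, a glycoprotein of phagocytic macrophages, at 1.26, while in that animal the microglial list's median was 0.03, the vessel list's -0.18 and the astrocyte list's -0.24. In animal 3 the high genes on both arrays included Myo5a, a myosin that carries vesicles, at 1.63, Syt1 at 1.43, Gria3, an AMPA receptor subunit, at 1.37, Klf7, a factor of axon growth, at 1.16, and Map2, the dendritic microtubule protein, at 1.05. Animal 2 had Igf2 at 2.35, Mepe, a matrix protein of bone, at 1.56, Pgk1, an enzyme of glycolysis, at 1.20, and Col1a2, a collagen, at 1.08. No gene passed 1 in either direction in animal 4.

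Some of the widest spreads come from single spots. Of the 10 named genes of largest SD, Galnt18, Mrpl4, Cdk7, Iars2 and Chmp1b2 were highest in animal 3, at 2.21, 1.96, 1.99, 1.73 and 1.81. In each the unswapped array gave 3.35 to 4.23 and the swapped array 0.62 or less. On that unswapped array the local background beside the spot in the non-sprouting channel was high, for Galnt18 1294 units beside a spot signal of 755 units and for Mrpl4 1026 beside 858. With spots left out where the local background of a channel was above 3 times its median on the array, an alternative added after seeing the data, their means over animals went from 0.37 to 0.51 down to -0.01 to 0.24. Tgfb1 was of the same kind, with a background of 532 units beside a signal of 233, and its mean went from 0.33 to 0.12. Of the 215 genes above 1 in animal 3, 34 had such a spot, and on the arrays of animals 1 and 5 such spots made up 10.6% to 16.7% of all. In animal 5 they included the spots of Tm4sf1 on both arrays, which read -1.30 and -1.45, and that of Vcan on 1 array. Leaving out all such spots gave 1960 genes at an unadjusted p under 0.05 and again 0 after correction in limma. The wide spread of Igf2, Tac1, Cartpt, Mepe and Fcrl2, an Fc receptor-like gene, rests on both arrays of the animals concerned.

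**Figure D4:**
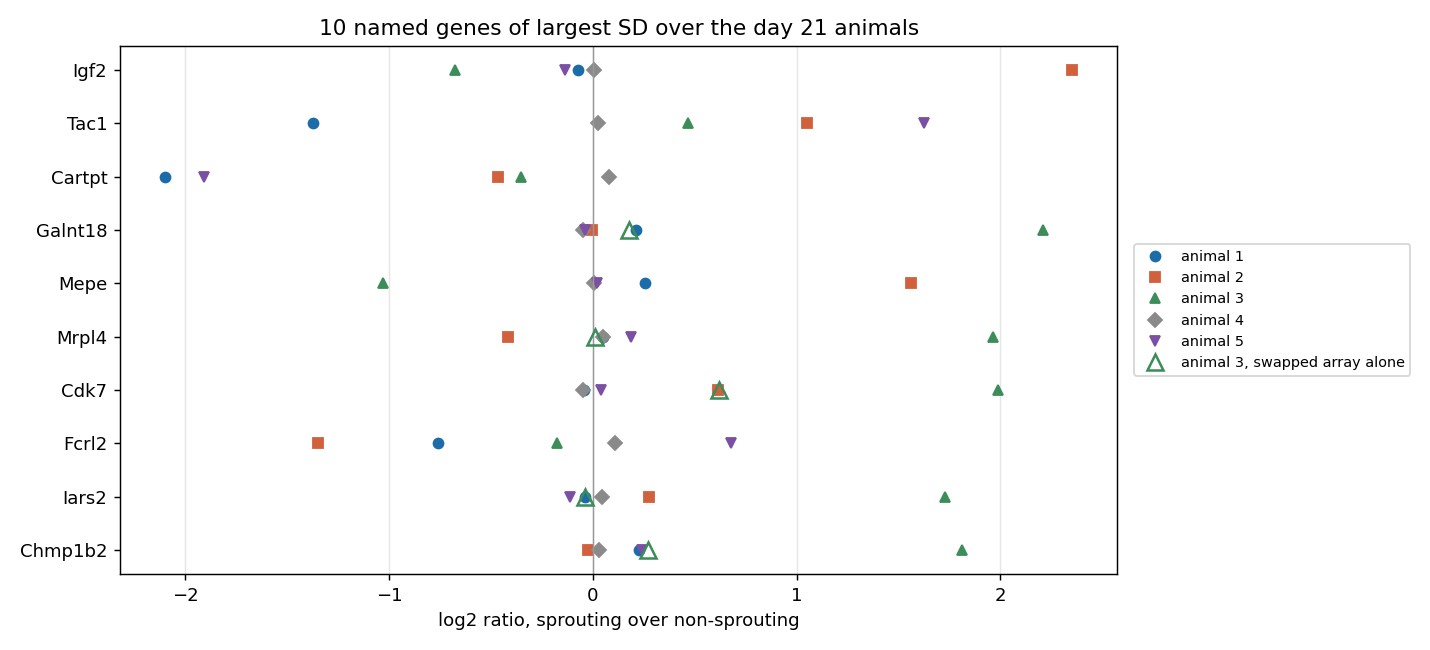
Points are the log2 ratios (x axis) of the 5 day 21 animals for the 10 named genes of largest SD, and open triangles give animal 3 from its swapped array alone where the other array's spot had a high local background. For 5 genes the value of animal 3 lies at 1.73 to 2.21 with both arrays and at -0.04 to 0.62 with the swapped array alone.

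Set against day 7, the sprouting ratio at day 21 differed for 0 genes at an adjusted p under 0.05 and for 1351 genes, 4.08% of those tested, at an unadjusted p under 0.05 in limma, fewer than the 1655 that would pass by chance alone if no gene differed. Without animal 4 these counts were 0 and 1189. The difference was positive for 779 and negative for 572. With the scanner's processed signals the split was 497 positive and 800 negative, and with median centring of each array it was 730 and 328. Every day 21 animal lay above every day 7 animal for 161 genes, 0.487% of those measured in all 10, and below for 94 genes, 0.284%. Among the 12 genes of smallest p for this difference, Htr7, a serotonin receptor that raises cyclic AMP, had the largest. Its day 7 animals read -0.40, -0.81, -0.37, -0.99 and -1.19 and its day 21 animals -0.33, 0.21, 0.11, 0.03 and 0.16, so the groups did not overlap. The difference of 0.79 (unadjusted p of 0.000826 and adjusted p of 0.94 in limma) came from low day 7 values, since the day 21 mean was 0.04, and another probe for the gene averaged -0.02 at day 21.

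Gpr83, a G-protein-coupled receptor of brain, went from a mean of -0.24 at day 7 to 0.24 at day 21, where it was above 0 on 10 of 10 arrays at 0.18, 0.45, 0.18, 0.04 and 0.36. Rbm27, an RNA-binding protein, Bfsp1, a lens filament protein, Dtd2, a proofreading enzyme for transfer RNA, and Ric8a, a chaperone of G-protein alpha subunits, had day 7 means of -0.21, -0.34, -0.11 and -0.10 and day 21 means of 0.08, 0.11, 0.07 and 0.08. At day 21 other probes averaged -0.03 and -0.10 for Rbm27 and -0.02 for Ric8a. For Rbm27, Bfsp1, Dtd2 and Ric8a the differences were 0.18 to 0.46. Dtd2 lay above 0 on 5 of 10 arrays at day 21. Its swapped arrays read 0.13 to 0.30 and its unswapped ones -0.09 to -0.01. In the other direction the day 21 mean was at or below 0 and the day 7 mean above it. Nrip3 went from 0.25 to -0.03, Nek1, a kinase of cilia and DNA repair, from 0.20 to -0.11, Pdk3, which switches off pyruvate dehydrogenase, from 0.18 to -0.18, Rapgef3, the cyclic AMP sensor Epac1, from 0.15 to -0.14, and Olfm3 from 0.30 to -0.15. Other probes at day 21 averaged -0.13 for Pdk3 and -0.06 for Olfm3. Kdelr1, among the leading lower genes of day 21, had a day 7 mean of 0.07. For 11 of the 12 genes the animals of the days did not overlap, with Gpr83 as the exception, but the genes were chosen on this contrast. Leaving out animal 4 moved the differences little, with that of Gpr83 going from 0.49 to 0.54. For groups that do not overlap, the sign within a scan day is fixed by that and says nothing further. The size of the Htr7 difference within the 3 scan days that held animals of both cohorts was 0.22, 1.35 and 1.15.

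**Figure D5:**
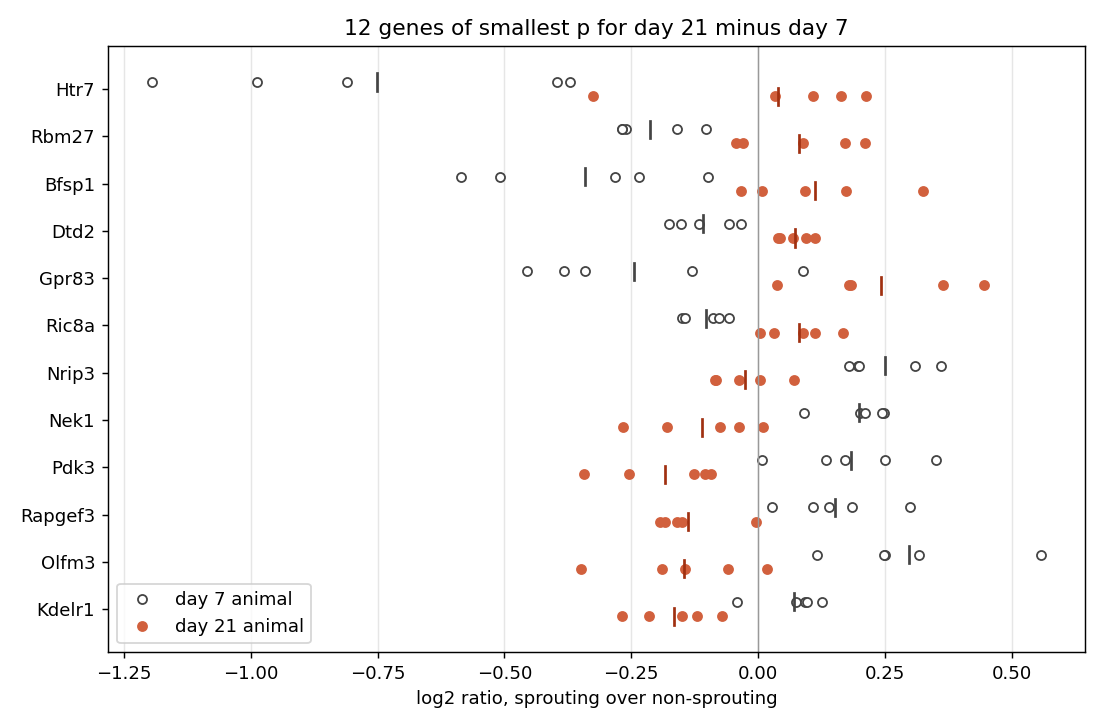
Points are log2 ratios of sprouting over non-sprouting neurons (x axis) for the 12 genes of smallest unadjusted p for day 21 minus day 7, open for the 5 day 7 and filled for the 5 day 21 animals, with a bar at each mean. The groups are apart for all genes but Gpr83, and the largest difference of means is that of Htr7, with means of -0.75 and 0.04. The nearest animals of its groups read -0.37 at day 7 and -0.33 at day 21.

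Of the 12 leading higher genes of day 21, 10 had a day 7 mean above 0, and of the 12 lower ones 8 had a day 7 mean below 0. The share of all genes tested with the same sign on both days was not counted, so these counts have no background beside them. Several of these day 7 means lay near 0, such as 0.00 for Tsx, 0.01 for Kiss1, -0.02 for Smr3a and -0.02 for Tet2. Syncrip had a day 7 mean of 0.17, Spire1 0.16 and Plekhh2 0.20, close to their day 21 means. Fmnl1 had -0.08 at day 7 against -0.31 at day 21, and Aldh2 had 0.03 against -0.19. Basp1 stood at 0.21 at day 7 and Jun at -0.08. The difference for Jun, 0.25, had an unadjusted p of 0.0505 in limma. Deep-layer marker Pcp4, a calmodulin-binding protein, read -0.21, -0.35, -0.36, -0.02 and -0.48 at day 21 but 1.11, -0.24, -0.09, 1.04 and 0.83 at day 7, where 3 animals were high. The oligodendrocyte list, at a median of -0.052 at day 21, had a day 7 median of 0.325.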

How the data were processed

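Per the file headers, the arrays were read with Agilent Feature Extraction 9.1.3.1. The deposited scanner files give mean spot intensity and median local background in each dye. The authors also deposited a table of log2 ratios, whose normalization is not given in the sources used here. Of its per-sample columns 20 were used, as an alternative, and 20 were not.

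Spot intensities were background-corrected (normexp, offset 50) and loess-normalized within each array with limma 3.58.1 in R 4.3.3, leaving out 2256 control spots of 43628. A probe was kept if well above background on a share of at least 0.5 of the arrays of a day in sprouting or non-sprouting samples, and if measured in at least 3 animals per day, and the brightest probe stood for a gene. Names came from the array or, by accession (10658 probes), symbol (4647) or synonym (3885), from RefSeq's GRCr8 gene table, and 21822 probes kept the array's name. The mean of an animal's 2 turned arrays was tested against 0 with lmFit and eBayes over 10 animals in one fit, with Benjamini-Hochberg adjustment.

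The members, the 25 gene lists and the 11 marker lists were chosen with earlier results of these data known. Genes were named by these rules: the 12 of smallest p and the 6 of largest ratio in each direction with 1 sign in every animal, the 6 of smallest p without animal 4, up to 3 of smallest p in each list, 15 growth genes chosen by name, the 6 of smallest p in each direction for day 21 minus day 7, and the 10 of largest SD. Other genes, such as the myelin genes and those past 1 in single animals, were chosen after their values were seen. Alternatives changed the background correction, normalization, filter, probe choice, samples and blocks. The statistics were tested on simulated data. No probe sequences were used, and a few genes counted in the lists are not reported here by name.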

Additional observations from a re-analysis of the deposited data

Results flagged for a closer look

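In 15 of the 205 sets of 5 animal values examined, 1 animal's gap to the nearest other exceeded Dixon's critical value. About 1 in 20 sets taken without regard to their spread would do so by chance. The sets examined include genes chosen for a large SD or a large ratio, so that share is no baseline for the 15. Animal 3 stood apart for Galnt18 at 2.21, Mrpl4 at 1.96, Chmp1b2 at 1.81, Iars2 at 1.73 and Tgfb1 at 1.28, which share a spot of high local background on its unswapped array, and for C12h12orf43 at 1.28 and Bcan at -0.11. Animal 2 stood apart for Igf2 at 2.35, Tsx at 0.21 and Chd3, a chromatin remodeller, at -0.03. It also did so for the medians of RNA-binding and splicing factors, 0.12, and of glutamatergic markers, -0.31. In animal 5 it was Lgals3 at 1.56, in animal 1 Cd79b, a B cell receptor subunit, at -0.11, and in animal 4 Rapgef3 at 0.00. The value of animal 4 for Rapgef3 goes with that animal's ratios near 0 over all genes.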

How the results depend on the processing

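No gene passed an adjusted p of 0.05 in limma under any alternative run, against 1936 at an unadjusted p under 0.05. The named genes kept direction and side of the adjusted threshold in 707 of 707 tests at day 21 and 120 of 120 of the difference. With nothing passing anywhere, the side could not change. Leaving out an animal could not turn a gene with 1 sign in every animal. Sizes did move, for Tet2 from -0.28 to -0.01 and for Dgkd from 0.11 to 0.82 over the alternatives. Beyond the spread of animals, 32 of 324 list medians and 33 of 1397 untested values moved. Requiring every day 21 spot well above background left 526 genes at an unadjusted p under 0.05 in limma (312 of them higher, 214 lower), from fewer genes tested. The scanner's processed signals gave 1553 lower at day 21 and 497 higher for the difference, and median centring gave 328 lower for the difference. The cause was not tested. Leaving out 1 day 21 animal gave 1111 to 2172 genes in all, 556 to 1338 higher and 504 to 834 lower, and leaving out 1 animal of either day gave 1162 to 1980 for the difference, 593 to 1123 higher and 528 to 857 lower. Leaving out day 7 animals and spots of high local background was chosen after seeing the data. With the replicate block the difference gave 1076 genes. Same-numbered animals of the days had correlations of -0.19 to 0 and are separate cohorts, so the numbers do not pair them. Dim probes limit precision, and 5 animals limit every test.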
